A study of Mus musculus with 24 samples.

Results

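Nuclear genes for respiratory complexes II to V were followed in mouse liver, 20 weeks after surgery. With libraries scaled by the trimmed mean of M values, most of them were higher after both weight-loss treatments than after a sham operation; with scaling by library totals, fewer were called. The genes were taken by name from the deposited gene tables: Sdha to Sdhd, Cyc1, Cycs, and every symbol starting with Uqcr, Cox4 to Cox8 or Atp5. This rule gave 45 of 14995 genes, of which 4 belong to complex II, 10 to complex III with cytochrome c, 14 to complex IV and 17 to complex V. Of these, 43 passed the filter on low counts and were tested, while Cox6b2 and Cox8b had too few counts. The study held 24 liver RNA libraries, 8 for each of 3 groups. Mice labelled Sham had a sham operation, mice labelled RYGB had a Roux-en-Y gastric bypass, an operation that makes a small gastric pouch and joins it to the jejunum, and mice labelled WM were calorie-restricted to the body weight of the RYGB group. The series title calls the mice obese; strain, sex, age and diet are not stated in the labels, nor whether each library came from a separate animal, so p-values measure the spread between these samples.

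Complexes II to V sit in the inner mitochondrial membrane. Complex II oxidises succinate and passes electrons to ubiquinone, complex III hands them on to cytochrome c, and complex IV transfers them to oxygen. Complexes III and IV pump protons, and the return of protons through complex V, the ATP synthase, drives ATP formation. Hepatocytes are rich in mitochondria and use this chain to burn fatty acids. All subunits of complex II are encoded in the nucleus, whereas complexes III to V also need subunits made from mitochondrial DNA.

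Total counts per library ran from 13659647 to 22766612. Levels are given as CPM, the count relative to the library total scaled by the trimmed mean of M values. The 3′ libraries hold about 1 fragment per transcript, so that values were not divided by length. Libraries Sham 17, RYGB 18 and RYGB 19 stood apart by pancreatic acinar transcripts, with summed marker levels of 813.6, 1902 and 1817 CPM against at most 17.0 CPM in the other libraries. Sequence near-identical over at least 50 of the last 400 bases was found for 13 genes of the set in GENCODE M21, and 11 of them have such a copy in the tables, so that counts of these could be split between copies.

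Respiratory genes are known to be bound near their starts by NRF1, by GABPA of the ETS family, by YY1 and by ERR alpha. RefSeq (GRCm38.p6) gave promoters for 36 of the 45 genes, and 250 bases before to 50 after each start were searched on both strands for CGCATGCG (NRF1), CCGGAAG (ETS), AAGATGGC (YY1) and TCAAGGTCA (ERR alpha). CGCATGCG was found in 8 of the 36 (22.2%), against 4.26% of 9830 tested genes with a promoter and 2.07% of all 27025 in the table. CCGGAAG was found in 13 (36.1%), against 19.8% and 9.93%. AAGATGGC was found in 3 (8.33%), against 5.33% and 3.19%, and TCAAGGTCA in 2 (5.56%), against 0.305% and 0.466%. At least 1 of the 4 strings stood in 19 of the 36 (52.8%), against 27.1% of the tested genes. Windows of 200 bases before the start are printed here to show the matches at genes described below and a window without any. Capitals mark a match, and position 0 is the first transcribed base. Atp5j (chr16:84834977-84835176, minus strand) holds NRF1, YY1 and ETS strings from -147, -88 and -61; a second start of Atp5j in the table, with its window at chr16:84835626-84835825, has none of the 4. Atp5k (chr5:108434400-108434599, minus strand) holds an NRF1 string from -49, Atp5h (chr11:115419920-115420119, minus strand) an ETS string from -38 and Atp5g3 (chr2:73911327-73911526, minus strand) an ERR alpha string from -52, the latter 2 on the opposite strand. Cycs (chr6:50566570-50566769, minus strand) holds an NRF1 string from -61, and Cox5a (chr9:57521032-57521231, plus strand) holds none of the 4.
Atp5j: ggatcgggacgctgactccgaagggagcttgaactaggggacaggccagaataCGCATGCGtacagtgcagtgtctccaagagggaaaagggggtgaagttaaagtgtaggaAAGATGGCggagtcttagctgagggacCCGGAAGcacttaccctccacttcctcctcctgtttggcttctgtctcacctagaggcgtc
Atp5k: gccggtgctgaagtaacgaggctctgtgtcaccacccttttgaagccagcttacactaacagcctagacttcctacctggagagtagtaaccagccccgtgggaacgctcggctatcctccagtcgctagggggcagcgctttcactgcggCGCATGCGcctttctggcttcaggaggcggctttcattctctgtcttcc
Atp5h: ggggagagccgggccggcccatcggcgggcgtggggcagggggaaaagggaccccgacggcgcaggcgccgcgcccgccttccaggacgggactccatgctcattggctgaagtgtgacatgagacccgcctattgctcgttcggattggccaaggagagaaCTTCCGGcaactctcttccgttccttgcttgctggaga
Atp5g3: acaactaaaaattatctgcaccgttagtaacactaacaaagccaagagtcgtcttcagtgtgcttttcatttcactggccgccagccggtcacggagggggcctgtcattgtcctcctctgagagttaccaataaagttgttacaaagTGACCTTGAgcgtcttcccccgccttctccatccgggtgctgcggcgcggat
Cycs: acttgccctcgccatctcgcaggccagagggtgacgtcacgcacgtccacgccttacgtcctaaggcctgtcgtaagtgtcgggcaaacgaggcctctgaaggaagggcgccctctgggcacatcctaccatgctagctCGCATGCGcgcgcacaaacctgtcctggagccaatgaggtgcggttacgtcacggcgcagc
Cox5a: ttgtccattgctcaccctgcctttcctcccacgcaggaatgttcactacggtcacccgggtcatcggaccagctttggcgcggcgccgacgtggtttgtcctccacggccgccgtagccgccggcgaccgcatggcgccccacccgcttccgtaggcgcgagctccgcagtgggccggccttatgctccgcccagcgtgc
A match is a description of letters and does not show that a factor bound there.

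The first question was whether these genes differed between RYGB and Sham. Of 43 tested genes, 29 rose after RYGB and 0 fell, by edgeR's quasi-likelihood test with Benjamini-Hochberg adjustment over all 13121 tested genes and an adjusted p under 0.05. Of all tested genes, 12.7% were called higher and 11.0% lower in the same fit. Scaled by library totals in place of the trimmed mean of M values, 18 of the 43 were called higher and 0 lower, while 5.75% of all tested genes were called higher and 26.9% lower. The median log2 fold change of the 43 genes was 0.71, against -0.01 over all tested genes. Sdhd had the only fold change below 0 (unadjusted p = 0.331). DESeq2, limma-voom and limma-trend also called 0 lower, against 13.4%, 19.8% and 12.3% of all tested genes. The genes that rose were 3 of 4 in complex II, 6 of 10 in complex III, 7 of 12 in complex IV and 13 of 17 in complex V.

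Weight matching gave the second comparison. In WM against Sham, 34 of the 43 genes rose and 0 fell, with a median of 0.84 against -0.01 over all tested genes, of which 16.5% were called higher and 15.0% lower. With library totals, 18 of the 43 were called higher and 0 lower, against 7.99% and 27.7% of all tested genes. DESeq2, limma-voom and limma-trend likewise called 0 lower, against 16.8%, 21.3% and 17.2% of all tested genes. The fold change of Sdhd, again the only one below 0, had an unadjusted p of 0.661. The genes that rose were 2 of 4 in complex II, 7 of 10 in complex III, 11 of 12 in complex IV and 14 of 17 in complex V. Both comparisons use the same 8 Sham libraries, so that their calls are not independent of each other. Side by side, 27 genes were called in both, Sdha and Uqcrc2 in RYGB alone, 7 in WM alone (Cyc1, Uqcr11, Cox6a1, Cox6b1, Cox8a, Cox7a2l, Atp5g1), and 7 in neither (Sdhd, Uqcrc1, Cycs, Cox7a1, Atp5d, Atp5g2, Atp5l). A call in 1 comparison and not in the other is no test of a difference. Without Sham 17, RYGB 18 and RYGB 19, the libraries with acinar transcripts, 27 genes were called higher after RYGB and 30 in WM. In that setting 9.76% of all tested genes were called higher and 7.64% lower after RYGB, and 14.7% and 12.7% in WM.

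By promoter letters, of the 19 genes with at least 1 of the 4 strings, 10 were called higher after RYGB (52.6%) and 14 in WM (73.7%). Of the 17 without a match, Cox6b2 and Cox8b were not tested. Of the 15 tested ones, 11 were called higher after RYGB and 12 in WM. Over all tested genes the shares were 12.7% after RYGB and 16.5% in WM. The difference between genes with and without a match was not tested.

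**Figure D1:**
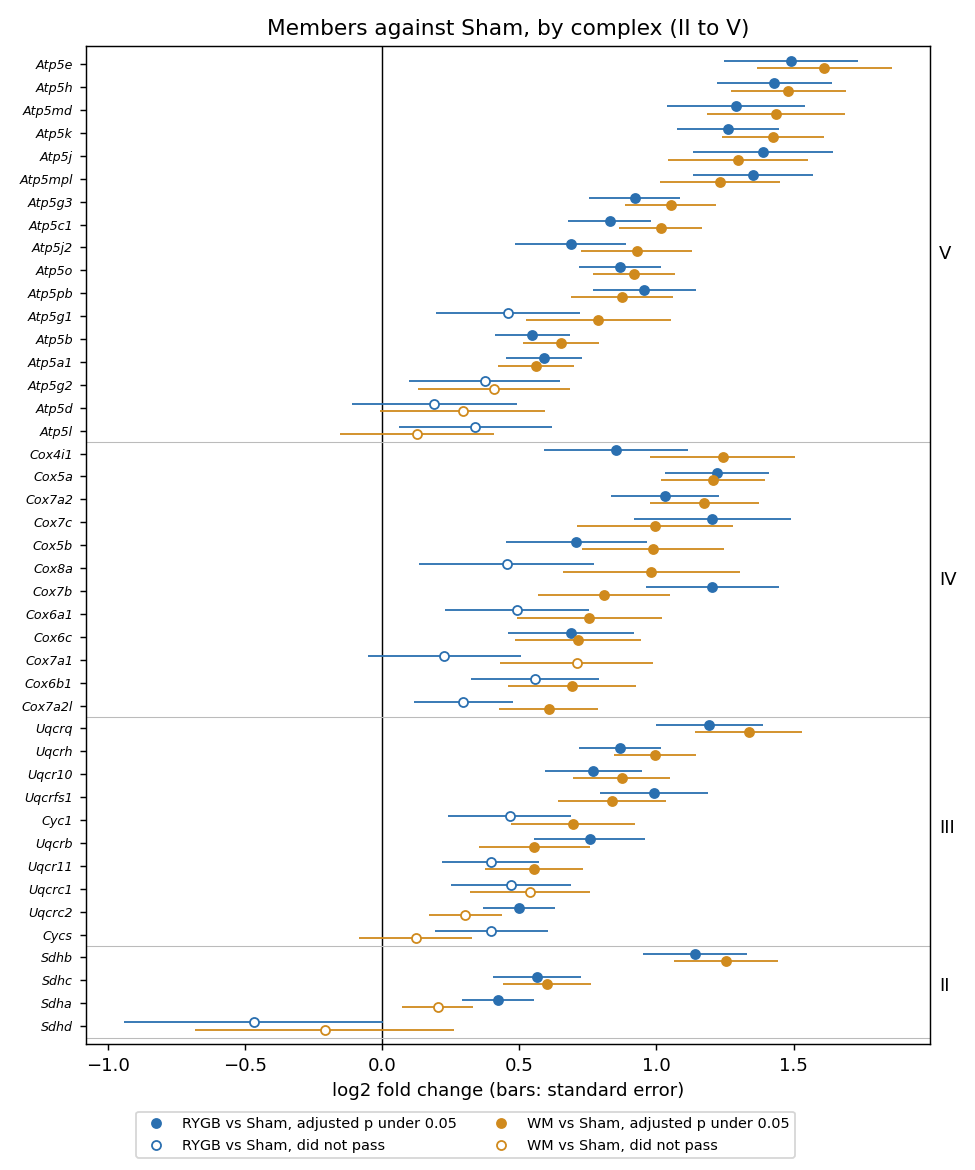
Log2 fold change (x axis) of the 43 tested genes against Sham, grouped by complex, with standard errors as bars; blue points are RYGB, orange points WM, and filled points passed an adjusted p of 0.05. Of the 43 genes, 42 lie above 0 in each comparison, and Atp5e has the largest value in both (1.49 and 1.61).

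The summed level of all 45 genes showed the shift in each library. The sum ran from 7902 CPM to 13312 CPM in Sham (median 10724), from 17143 to 25662 in WM (median 21718) and from 16926 to 24938 in RYGB (median 19398). In these scaled levels, no Sham library reached the lowest library of either other group, while WM and RYGB overlapped over most of their ranges. Group means were 10995 ± 1784 CPM in Sham, 21378 ± 2648 in WM and 20051 ± 2802 in RYGB (SD, n = 8), which is 1.94-fold and 1.82-fold of Sham. Among deposited counts, without scaling, these genes took 1.29% ± 0.245 in Sham, 1.99% ± 0.182 in WM and 1.84% ± 0.247 in RYGB. By complex, the RYGB mean was 1.73-fold of Sham for complex II, 1.82-fold for complex III, 1.78-fold for complex IV and 1.88-fold for complex V. The scaled sums of complexes II, III and V did not overlap between Sham and the other groups. For complex IV, RYGB 22 (4082 CPM) lay just below the highest Sham library (4123 CPM). Among deposited counts, without scaling, Sham 2 lay above the RYGB mean for complex V (0.777% ± 0.117). The separation of libraries thus refers to scaled levels.

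**Figure D2:**
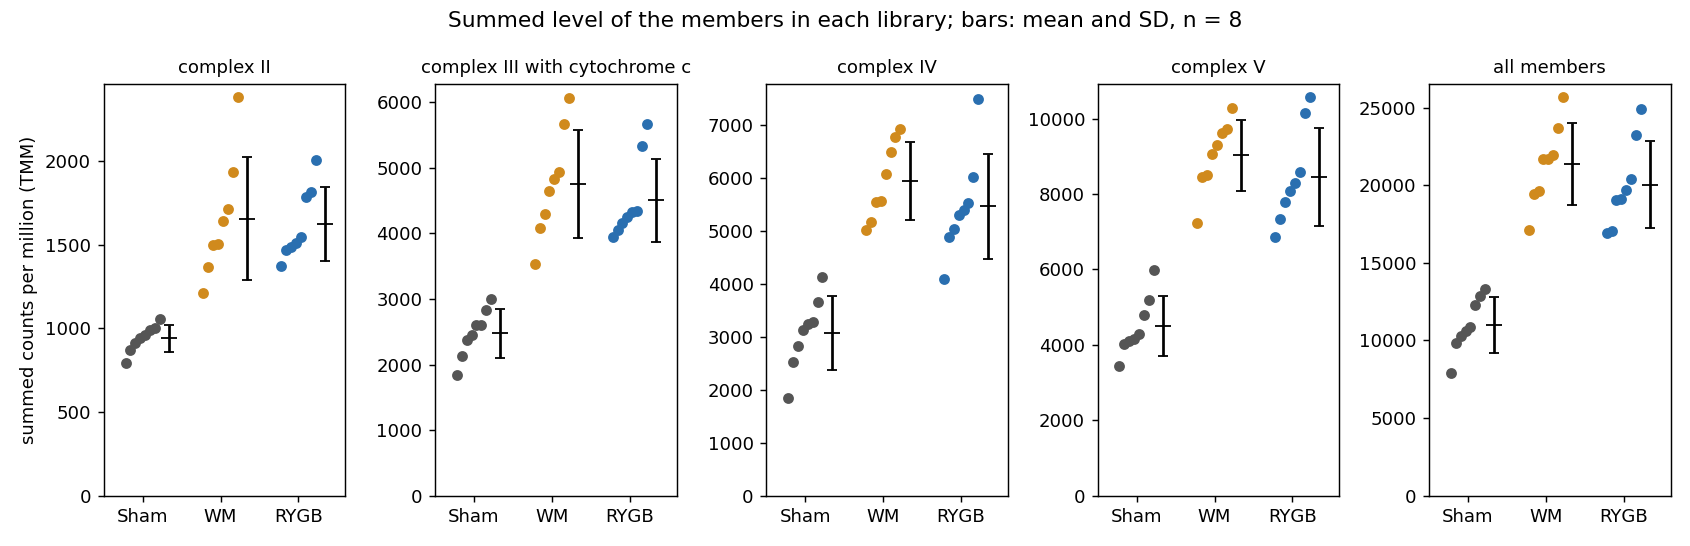
Summed CPM (y axis) of the genes of each complex and of all 45 genes in each of the 24 libraries, sorted within each group, with mean and SD to the right. In these scaled levels, the Sham libraries (7902 to 13312 CPM for all genes) lie below every WM and RYGB library, except that 1 RYGB library overlaps them for complex IV.

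Other features of the libraries also differed between the groups. Of all tested genes, 12.7% were called higher and 11.0% lower after RYGB, and 16.5% and 15.0% in WM. The marker lists below are short, and 1 call in a list of 4 is near these shares. Hepatocyte markers (Alb, Apoa1, Ttr, Cps1, Fah, Hnf4a) had a summed level from 29139 to 67336 CPM in Sham, from 66966 to 118393 in WM and from 74097 to 126059 in RYGB; 3 of 6 rose after RYGB and 5 of 6 in WM, and none was at 0. All 4 Kupffer cell markers rose in both, and their sum ran from 33.6 to 187.9 CPM in Sham, from 135.8 to 345.8 in WM and from 98.4 to 375.5 in RYGB. Of 4 stellate cell markers, 2 fell after RYGB and 3 in WM, and their sum ran from 305.2 to 573.6 CPM in Sham, between 185.3 and 299.6 CPM in WM, and between 228.8 and 331.8 CPM in RYGB. Erythroid transcripts summed to between 748.1 and 2410 CPM in Sham, between 1407 and 9955 in WM and between 2806 and 5662 in RYGB, and 2 of 5 rose after RYGB and 5 of 5 in WM. Of 4 endothelial markers, 1 rose after RYGB (Clec4g) and 2 in WM (Clec4g, Stab2), with sums of 22.9 to 85.8 CPM in Sham against 52.3 to 128.4 CPM for WM libraries and 40.1 to 122.5 CPM for RYGB libraries. Of 5 tested smooth muscle and pericyte markers, 2 fell in WM (Tagln, Rgs5) and none passed after RYGB, and the list summed to between 42.3 and 70.5 CPM in Sham, between 15.5 and 40.9 in WM and between 21.3 and 64.5 in RYGB. Of the brown adipocyte list, Cidea fell in both comparisons and Ppargc1a in WM alone, while Ucp1 and Dio2 were not among the genes analysed. Ppargc1a is also on the list of coregulators below, so that this list gives no measure of brown adipocytes. Of the T and B cell list, Cd3d rose in both, and Ms4a1 passed in neither (-0.82 after RYGB and -0.67 in WM). Cd3e was not tested, and Cd79a was not among the genes analysed. The part of these cell types in the result was not tested, and in whole liver a change in the share of a cell type and a change in RNA per cell cannot be told apart. The genes are also short: their median transcript length was 1129 bp, against 3106 bp over all genes. Within each library, the slope of centred log2 level on log2 length ran from 0.093 to 0.24 in Sham, from -0.21 to 0.054 in WM and from -0.15 to 0.023 in RYGB. After a correction of each library for length and GC content, 26 genes were called higher after RYGB and 27 in WM. Their medians were 0.52 and 0.56 over the 43 genes, against 0.08 and 0.10 over all tested genes. Of all tested genes, 14.7% were called higher and 7.93% lower after RYGB, and 18.8% and 10.3% in WM. With library totals, the median of the 43 genes was 0.40 after RYGB and 0.54 in WM, and that of all tested genes lay at -0.36 and -0.33.

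Complex II is a tetramer of a flavoprotein, Sdha, an iron-sulfur protein, Sdhb, and the membrane anchors Sdhc and Sdhd. Sdhb (ENSMUSG00000009863, GRCm38 chr4:140961203-140979193) ran from 346.8 CPM to 531.2 CPM in Sham (median 437.8), from 527.1 to 1735 in WM (median 983.6) and from 799.4 to 1238 in RYGB (median 857.3). All RYGB libraries and 7 of 8 WM libraries lay above every Sham library. It rose by a log2 fold change of 1.14 ± 0.19 (SE) after RYGB (edgeR adjusted p = 6.78e-05) and of 1.25 ± 0.19 in WM (adjusted p = 1.3e-05), and had the largest fold change of complex II. Sdha (ENSMUSG00000021577, chr13:74322254-74350280), the catalytic subunit, ran from 272.4 to 372.7 CPM in Sham (median 293.0), from 271.4 to 447.9 in WM (median 350.8) and from 368.9 to 486.3 in RYGB (median 392.4). In RYGB, 7 of 8 libraries lay over the highest Sham library and the lowest lay just under it, whereas WM libraries spanned the whole Sham range. The log2 fold change was 0.42 ± 0.13 after RYGB (adjusted p = 0.0178) and 0.20 ± 0.13 in WM (adjusted p = 0.244). Scaled by library totals, these differences of Sdha were 0.07 (adjusted p = 0.753) and -0.13 (adjusted p = 0.543). Sdhc rose in both (0.56 and 0.60). Sdhd did not pass (-0.47 ± 0.47 and -0.21 ± 0.47), and its levels spread widely in every group, from 8.91 to 79.6 CPM in Sham, from 1.97 to 77.5 in WM and from 7.96 to 79.7 in RYGB.

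Complex III has a redox core of cytochrome b, cytochrome c1 (Cyc1) and the Rieske iron-sulfur protein (Uqcrfs1), 2 large core proteins (Uqcrc1, Uqcrc2) and several small subunits. The small subunits Uqcrb, Uqcrq, Uqcrh, Uqcr10 and Uqcr11 rose in 4 of 5 cases after RYGB (median log2 fold change 0.77) and in 5 of 5 in WM (0.87). Of the 4 core and redox genes, 2 rose after RYGB (median 0.48) and 2 in WM (0.62). Uqcrq (ENSMUSG00000044894, chr11:53427922-53430831), a small subunit next to cytochrome b, ran from 523.4 to 1035 CPM in Sham (median 861.0), from 1128 to 3143 in WM (median 1958) and from 1548 to 2884 in RYGB (median 1766). Its Sham libraries overlapped neither other group. The log2 fold change was 1.19 ± 0.20 after RYGB (adjusted p = 5.44e-05) and 1.34 ± 0.20 in WM (adjusted p = 8.08e-06). Uqcrh, the acidic hinge protein, rose by 0.87 and 0.99, and the Rieske protein gene Uqcrfs1 rose by 0.99 and 0.84.

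Uqcrc2 (ENSMUSG00000030884, chr7:120635176-120659524), a core protein, ran from 199.8 to 256.1 CPM in Sham (median 231.2), from 244.6 to 345.3 in WM (median 274.6) and from 246.1 to 390.2 in RYGB (median 360.9). In both treated groups 7 of 8 libraries exceeded the highest Sham library, and in RYGB 5 of 8 also exceeded the highest WM library. It rose by 0.50 ± 0.13 after RYGB (adjusted p = 0.00645); in WM the value was 0.30 ± 0.13 (edgeR adjusted p = 0.0783, DESeq2 adjusted p = 0.0372). Scaled by library totals, these differences of Uqcrc2 were 0.16 (adjusted p = 0.434) and -0.01 (adjusted p = 0.952). Cyc1 had 0.46 after RYGB and rose by 0.70 in WM, Uqcrc1 had 0.47 and 0.54, and neither passed after RYGB. Cytochrome c, Cycs, carries electrons from complex III to IV and also triggers apoptosis when released. It ran from 40.2 to 71.5 CPM in Sham (median 48.8), from 26.5 to 88.3 in WM (median 55.9) and from 32.2 to 88.7 in RYGB (median 73.0). The groups overlapped, and neither log2 fold change passed (0.40 ± 0.21 after RYGB, 0.12 ± 0.21 in WM).

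In complex IV, the nuclear subunits surround a core made from mitochondrial DNA. All 10 isoforms of general expression rose in WM (median 0.98) and 7 of 10 after RYGB (median 0.78). Cox5a (ENSMUSG00000000088, chr9:57521274-57532426), which faces the matrix, ran from 146.0 to 377.3 CPM in Sham (median 198.3), from 392.2 to 608.2 in WM (median 538.4) and from 352.2 to 645.2 in RYGB (median 521.5). Only the lowest RYGB library fell inside the Sham range, and no WM library did. Cox5a rose by 1.22 ± 0.19 after RYGB (adjusted p = 2.96e-05) and by 1.21 ± 0.19 in WM (adjusted p = 2.15e-05). Cox4i1, an early assembly subunit, rose by 0.85 and 1.24, Cox7a2 by 1.03 and 1.17, Cox7b by 1.20 and 0.81, and Cox7c by 1.20 and 0.99.

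Cox6c (ENSMUSG00000014313, chr15:35925886-35938246) ran from 424.4 to 1040 CPM in Sham (median 526.3), from 573.5 to 1452 in WM (median 1091) and from 616.9 to 1678 in RYGB (median 988.2). The groups overlapped, with 4 of 8 RYGB libraries and 5 of 8 WM libraries above the highest Sham library. It had 0.69 ± 0.23 after RYGB (adjusted p = 0.0272) and 0.71 ± 0.23 in WM (adjusted p = 0.0176). The call of Cox6c after RYGB was lost without Sham 3, Sham 5, Sham 16, Sham 23 or RYGB 28 (adjusted p = 0.0524, 0.0563, 0.0542, 0.0506 and 0.0831), and both calls of Cox6c were lost when libraries were scaled by totals (adjusted p = 0.356 and 0.239). Cox6a1, Cox6b1 and Cox8a rose in WM (0.76, 0.69 and 0.98) and had 0.49, 0.56 and 0.45 after RYGB. Cox7a2l, a relative of Cox7a2 that links complexes III and IV in supercomplexes, rose in WM (0.61) and had 0.30 after RYGB.

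Of the listed genes, 3 encode isoforms of other tissues: Cox7a1 and Cox8b are known from heart and skeletal muscle, and Cox6b2 from testis. Cox7a1 ran from 3.07 to 5.55 CPM in Sham (median 3.79), from 3.06 to 14.6 in WM (median 5.91) and from 2.37 to 8.77 in RYGB (median 4.67), and the groups overlapped. Its difference in WM was 0.71 ± 0.28 (adjusted p = 0.052), and after RYGB 0.23 ± 0.28 (adjusted p = 0.597). The WM value of Cox7a1 passed when Sham 3, Sham 16, Sham 23, WM 9, WM 13 or WM 27 was left out (adjusted p = 0.0472, 0.0474, 0.0467, 0.0216, 0.0424 and 0.0464). It also passed with DESeq2 (0.0387), with a filter of 1 CPM in 8 libraries (0.0499) and with the compared groups alone (0.0465). After the GC and length correction both differences of Cox7a1 turned below 0, to -0.14 in WM (adjusted p = 0.679) and -0.40 after RYGB (adjusted p = 0.21), and with library totals the RYGB value was -0.11 (adjusted p = 0.774). Cox6b2 reached at most 0.708 CPM and Cox8b at most 1.15 CPM in any library, and both had libraries at 0 in every group. Of 8 striated muscle markers, Mylpf alone was among the genes analysed, at 3.33 CPM or less.

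The share of each isoform within its subunit does not depend on how libraries are scaled. Cox7a1 made up 1.14% ± 0.414 of Cox7a1 plus Cox7a2 counts in Sham, 0.833% ± 0.520 in WM and 0.665% ± 0.355 in RYGB. Among the 3 genes of the c ring, which give the same mature protein, Atp5g3 held 95.7% ± 1.96 in Sham, 96.7% ± 0.783 in WM and 96.9% ± 1.18 in RYGB. Atp5g1 held 4.12%, 3.21% and 2.99%, and Atp5g2 0.165%, 0.107% and 0.113%. None of 12 differences passed a two-sided exact permutation test of 8 against 8 after Benjamini-Hochberg adjustment; the smallest p, for Cox7a1 in RYGB against Sham, was 0.0319 (adjusted p = 0.190). Without Sham 6, the share of Atp5g2 passed in RYGB and WM against Sham (exact permutation test, adjusted p = 0.0298 in both). Atp5g2 had a mean of 34.4 counts, and its near-identical copy Gm10175 had 15.4.

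**Figure D3:**
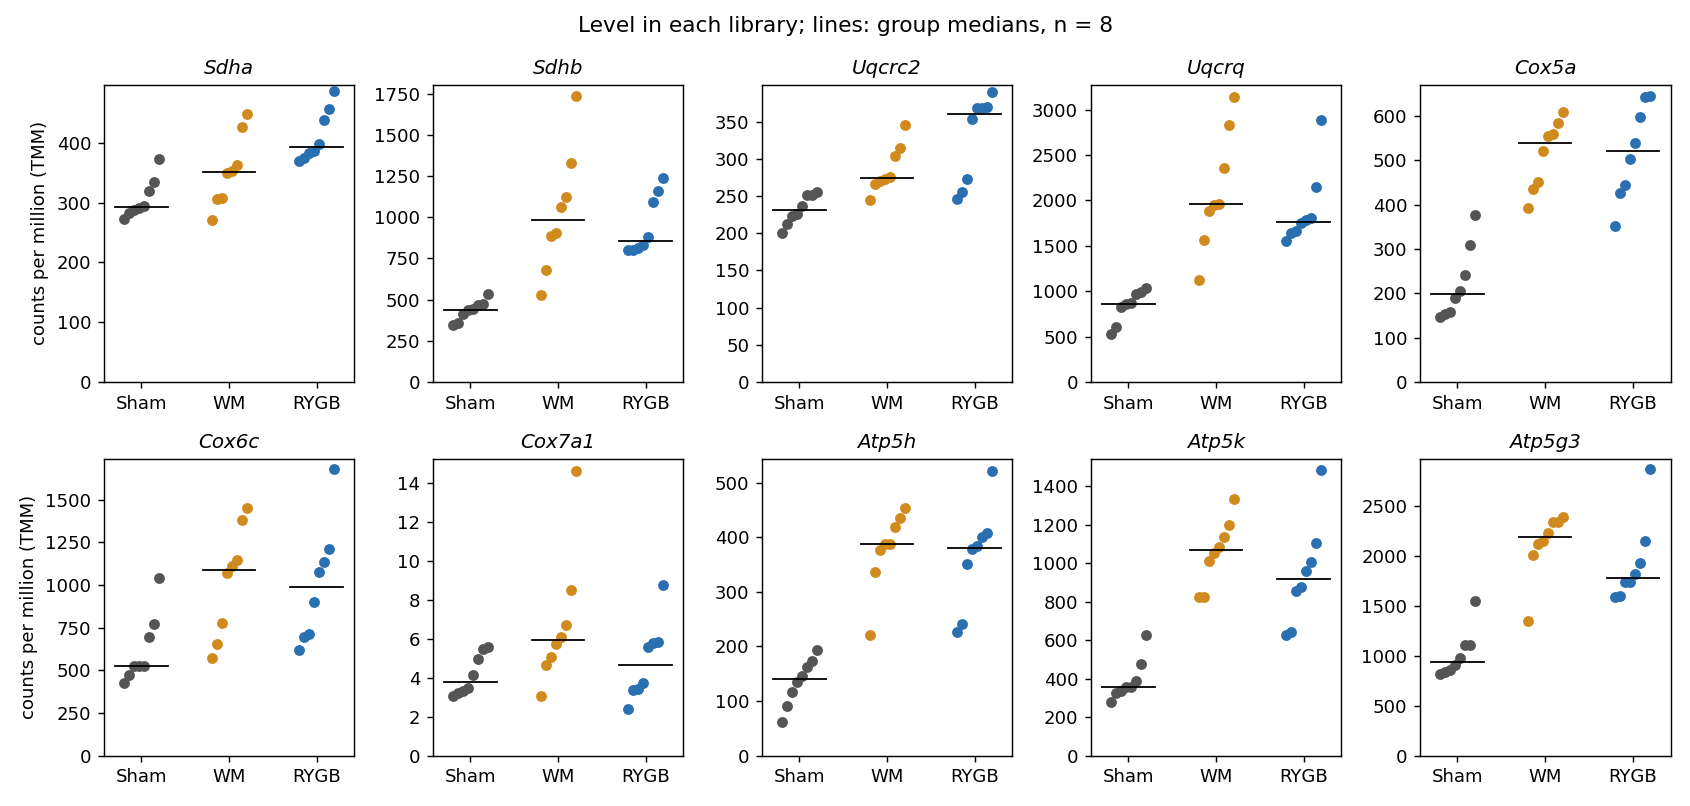
CPM (y axis) of 10 genes in each of the 24 libraries, sorted within each group, with the group median as a line; every axis starts at 0. In these scaled levels, Sdhb, Uqcrq, Atp5h and Atp5g3 show no overlap between Sham and RYGB, and Cox7a1 overlaps between all groups (2.37 to 14.6 CPM).

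Complex V couples a catalytic F1 head, which makes ATP, to a membrane ring of c subunits, and a peripheral stalk holds the head in place. The 4 stalk genes rose in both comparisons, with median log2 fold changes of 1.17 after RYGB and 1.11 in WM. Atp5h (ENSMUSG00000034566, chr11:115415689-115419962), the d subunit of the stalk, ran from 61.3 to 193.7 CPM in Sham (median 140.9), from 220.7 to 454.5 in WM (median 388.0) and from 226.8 to 521.1 in RYGB (median 380.9). Its Sham libraries overlapped neither other group. It rose by 1.43 ± 0.21 after RYGB (adjusted p = 1.33e-05) and by 1.48 ± 0.21 in WM (adjusted p = 4.74e-06). A processed pseudogene, Gm10250, is 99.66% identical to Atp5h over 291 bases, held a mean of 197.6 counts against 4718 for Atp5h, and rose by 1.18 and 1.28. Atp5j, coupling factor F6, rose by 1.39 and 1.30, Atp5pb, the b subunit, by 0.96 and 0.87, and Atp5o, which joins stalk and head, by 0.87 and 0.92. Atp5j overlaps Gabpa on the opposite strand; Gabpa had 203.6 counts against 1601 and log2 fold changes of -0.40 and -0.14 that did not pass.

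Among the small membrane subunits, which help ATP synthase form dimers, 4 of 5 rose in each comparison (median 1.26 after RYGB and 1.23 in WM). Atp5k (ENSMUSG00000050856, chr5:108433244-108434448), the e subunit, ran from 279.2 to 629.1 CPM in Sham (median 358.1), from 826.2 to 1334 in WM (median 1069) and from 627.7 to 1482 in RYGB (median 916.8). The lowest RYGB library fell just inside the Sham range, and no WM library did. Atp5k rose by 1.26 ± 0.19 after RYGB (adjusted p = 1.44e-05) and by 1.43 ± 0.19 in WM (adjusted p = 1.54e-06), the smallest p of the 43 genes in that comparison. Atp5md rose by 1.29 and 1.44, Atp5mpl by 1.35 and 1.23 and Atp5j2 by 0.69 and 0.93. Atp5l, the g subunit, had a mean of 50.3 counts and values of 0.34 and 0.13 that did not pass; its transcript model of 6310 bp is the longest of the set.

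In the head, 4 of 5 genes rose in each comparison, with medians of 0.59 and 0.65. Atp5e, the epsilon subunit, rose by 1.49 ± 0.25 and 1.61 ± 0.25, the largest fold changes of all 43 genes. The catalytic beta subunit Atp5b rose by 0.55 and 0.65, the alpha subunit Atp5a1 by 0.59 and 0.56 and the rotating gamma subunit Atp5c1 by 0.83 and 1.02. The delta subunit Atp5d had 0.19 ± 0.30 and 0.29 ± 0.30 and did not pass.

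In the c ring, Atp5g3 (ENSMUSG00000018770, chr2:73908447-73911326) had the highest mean CPM of the set, in 3′ counts not divided by length. It ran from 818.3 to 1550 CPM in Sham (median 942.2), from 1347 to 2393 in WM (median 2190) and from 1595 to 2874 in RYGB (median 1780). In scaled levels, every RYGB library and 7 of 8 WM libraries exceeded the highest Sham library, Sham 2. Without scaling, the share of Atp5g3 in Sham 2 (35919 counts) lay above the mean share of the whole c ring in RYGB (0.183%) and WM (0.203%). The separation of Atp5g3 thus depends on the scaling. Atp5g3 rose by 0.92 ± 0.17 after RYGB (adjusted p = 0.00017) and by 1.05 ± 0.17 in WM (adjusted p = 2.15e-05). Atp5g1 (ENSMUSG00000006057, chr11:96068852-96075670) ran from 17.7 to 78.7 CPM in Sham (median 38.2), from 27.7 to 99.6 in WM (median 71.0) and from 37.4 to 88.7 in RYGB (median 54.0), with overlap between all groups. It had 0.46 ± 0.26 after RYGB (adjusted p = 0.214) and 0.79 ± 0.26 in WM (adjusted p = 0.0233). The WM call of Atp5g1 was lost without WM 20 (adjusted p = 0.051), without Sham 17, RYGB 18 and RYGB 19 (0.0554) and with library totals (0.107). Atp5g2 had 0.37 and 0.41, which did not pass.

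Over the whole set, scaled levels of Sham and RYGB libraries did not overlap for 8 genes (Sdhb, Uqcrq, Atp5a1, Atp5c1, Atp5e, Atp5g3, Atp5h, Atp5mpl), against 3.28% of all tested genes that were higher without overlap. Libraries of Sham and WM did not overlap for 9 (Uqcrh, Uqcrq, Cox5a, Atp5b, Atp5c1, Atp5h, Atp5k, Atp5o, Atp5mpl), against 3.15%. No gene of the set was lower without overlap in either comparison, against 2.10% of tested genes in RYGB and 2.68% in WM. In a set of 43 genes, 0 is near these shares and is no result about the set. Uqcrq, Atp5c1, Atp5h and Atp5mpl stood in both lists. The fold changes ran higher for genes with higher levels (Pearson r = 0.48 over 43 genes in both comparisons) and were weakly related to transcript length (r = -0.17 after RYGB and -0.31 in WM); genes share libraries and depth, and these are descriptions.

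The third comparison, RYGB against WM, set the operation beside calorie restriction to the same weight. edgeR called 0 of 43 genes higher and 0 lower, 0 had an unadjusted p under 0.05, and DESeq2, limma-voom and limma-trend called 0 as well. Of all tested genes, 1.06% were called higher and 0.434% lower. With only 43 genes, 0 calls is near these shares and is no result about the set. The median log2 fold change was -0.10, against -0.02 over all tested genes, with 13 values above 0 and 30 below. The smallest p was that of Cox7a1 (-0.48 ± 0.28, unadjusted p = 0.0934, adjusted p = 0.555). The 95% interval of the difference lay within 2-fold either way for 40 of the 43 genes and within 1.5-fold for 22. The exceptions to 2-fold were Sdhd (-1.23 to 0.71), Cox8a (-1.18 to 0.12) and Cox7a1 (-1.05 to 0.09), and no interval left out 0. Libraries of RYGB and WM overlapped for all 43, against 0.282% of tested genes higher and 0.0762% lower without overlap, which is again no result about the set. Of the genes called in 1 comparison with Sham alone, those called after RYGB had 0.22 ± 0.13 (Sdha) and 0.20 ± 0.13 (Uqcrc2). The 7 called in WM alone all had values below 0. These were -0.53 ± 0.32 for Cox8a, -0.33 ± 0.26 for Atp5g1, -0.31 ± 0.18 for Cox7a2l and -0.26 ± 0.26 for Cox6a1. Cyc1 had -0.23 ± 0.225, Uqcr11 -0.16 ± 0.18 and Cox6b1 -0.13 ± 0.23. These genes were picked by their calls, and no value passed. For the 27 genes called in both, the difference ran from -0.39 ± 0.26 for Cox4i1 to 0.39 ± 0.24 for Cox7b. Among those given in full above, it was, for example, -0.05 ± 0.20 for Atp5h, 0.01 ± 0.19 for Cox5a, -0.14 ± 0.19 for Uqcrq and -0.11 ± 0.19 for Sdhb. Sums by complex in RYGB were 0.980-fold of WM for complex II, 0.947-fold for complex III, 0.920-fold for complex IV and 0.937-fold for complex V.

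**Figure D4:**
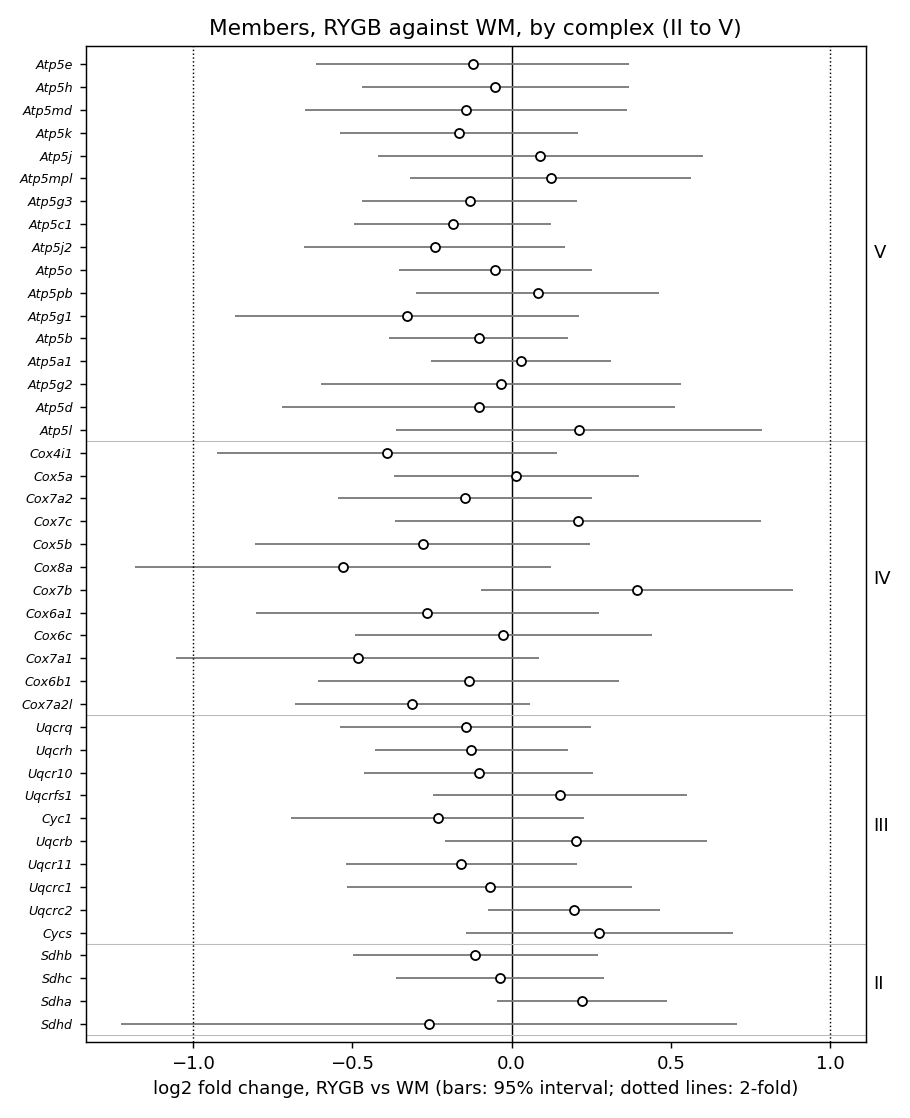
Log2 fold change (x axis) of the 43 tested genes in RYGB against WM, in the same order, with 95% intervals as bars and dotted lines at 2-fold. Every interval includes 0, and those of Sdhd, Cox8a and Cox7a1 pass the left dotted line.

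Within groups, the genes of the set varied together to a limited degree. After the group means of log2 level were taken out, the median correlation was 0.21 over 903 pairs of genes in 24 libraries, against -0.000566 for 3444000 pairs from an evenly spaced subset of all tested genes; the pairs share libraries and scaling. The median correlation of a gene with the others was highest for Atp5k (0.43), Atp5h (0.39) and Uqcr10 (0.39) and lowest for Sdha (-0.06) and Uqcrc1 (-0.02).

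Other genes of the pathway were read from lists of textbook members. Of 36 assembly factors of complexes II to V, 11 rose after RYGB and 0 fell (median 0.33), and 11 rose and 1 fell in WM (median 0.40), where 12.7% of all tested genes rose and 11.0% fell after RYGB and 16.5% and 15.0% in WM. In RYGB against WM, edgeR called 0. Higd1a, a complex IV assembly factor induced by hypoxia, ran from 19.1 to 31.5 CPM in Sham (median 27.4), from 37.9 to 72.6 in WM (median 54.8) and from 32.3 to 84.7 in RYGB (median 57.2), and rose without overlap by 1.21 and 1.08. Sdhaf2, which helps insert the flavin of Sdha, rose by 0.69 and 0.64, and Uqcc3, of complex III, by 0.67 and 1.05. Cox19, which serves copper delivery, fell in WM (-0.38).

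Ubiquinone links complex II to complex III. Of 13 genes of its synthesis, 4 rose after RYGB (Coq3, Coq7, Coq8a, Coq9) and 5 in WM (Coq2, Coq3, Coq9, Coq10a, Coq10b), and 0 fell in either. Of all tested genes, 12.7% were called higher and 11.0% lower after RYGB, and 16.5% and 15.0% in WM. With only 13 genes, 0 lower is near these shares and is no result about the list. The methyltransferase Coq3 rose by 0.85 and 0.82. Coq10b, a lipid-binding protein needed for the use of ubiquinone, was the exception between treatments: it ran from 4.86 to 14.1 CPM in Sham, from 7.49 to 36.0 in WM and from 3.03 to 14.0 in RYGB, and was lower in RYGB than in WM by a log2 fold change of -1.43 ± 0.33 (adjusted p = 0.0165).

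Of 13 transcription factors and coregulators of respiratory genes, 1 rose and 1 fell after RYGB, and 1 rose and 2 fell in WM. These shares are near those of all tested genes (12.7% higher and 11.0% lower after RYGB, 16.5% and 15.0% in WM), so the counts are no result about the list. Esrra, which encodes ERR alpha, ran from 5.61 to 7.97 CPM in Sham (median 6.77), from 8.67 to 31.5 in WM (median 15.0) and from 7.86 to 18.1 in RYGB (median 9.86), and rose by 0.75 ± 0.23 (adjusted p = 0.0155) and 1.35 ± 0.23 (adjusted p = 5.17e-05). Nrip1, a corepressor of oxidative genes, fell by 0.90 after RYGB and by 1.18 in WM. The coactivator Ppargc1a fell in WM (-1.01 ± 0.21, adjusted p = 0.000422) and had -0.24 ± 0.20 after RYGB (adjusted p = 0.406). Nrf1, Gabpa, Yy1 and Tfam did not pass in either comparison.

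Among partners outside the name rule, Ndufa4, now counted as a complex IV subunit, rose by 1.43 and 1.30, and Atpif1, the inhibitor of ATP synthase, by 0.75 and 0.99. Of the mitochondrial DNA-encoded subunits of complexes III to V, 2 were analysed here: mt-Co1 of complex IV rose in WM (0.78, adjusted p = 0.00266) and had 0.22 after RYGB, and mt-Cytb of complex III had -0.20 in WM and 0.03 after RYGB, which did not pass. Sdhaf2, Uqcc3, Higd1a, Coq3, Coq10b, Nrip1 and Ndufa4 were picked by a rule on the smallest p in these data. The other genes of these further lists were named after their values were seen.

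**Figure D5:**
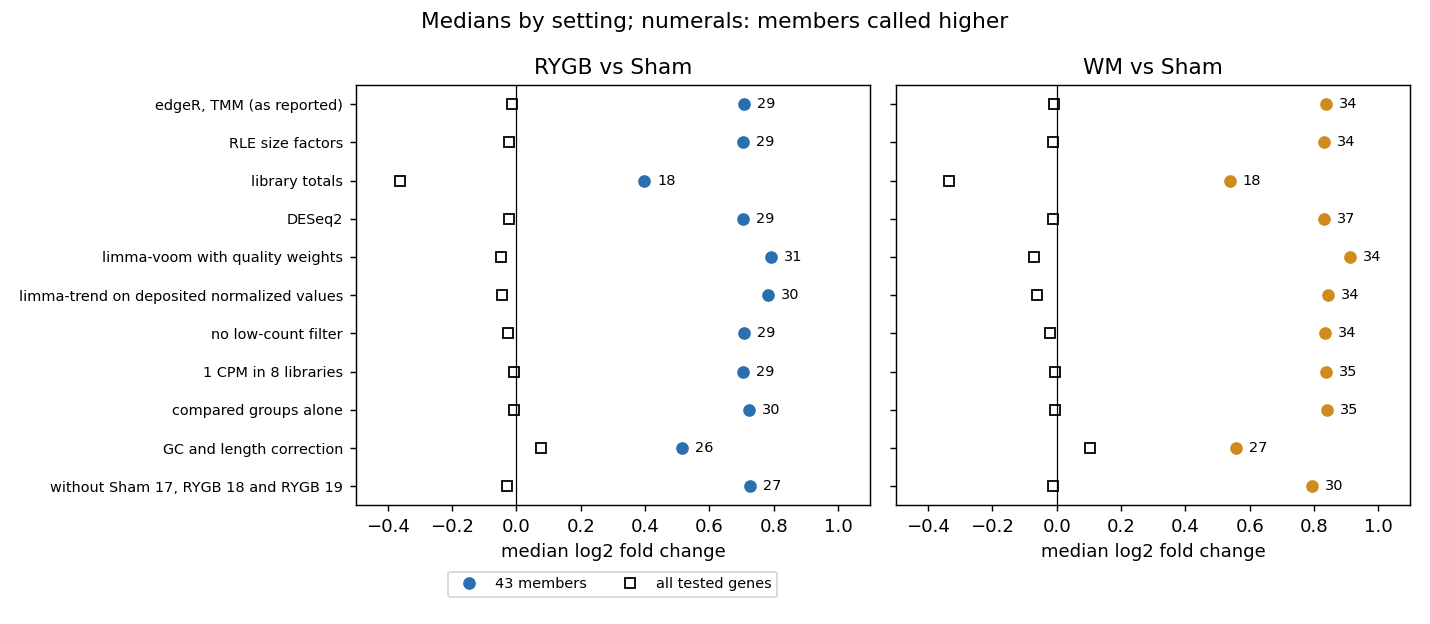
Median log2 fold change (x axis) against Sham of the 43 genes (filled) and of all tested genes (open squares) under each way of processing the counts, with the number of genes called higher as numerals. The median of the 43 genes lies above that of all tested genes in every row, and library totals give the fewest calls (18 in each comparison).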

How the data were processed

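Liver RNA of 24 libraries, 8 in each of the groups Sham, WM and RYGB, was sequenced from the 3′ end of transcripts. The authors deposited 2 tables: raw read counts per gene, and normalized values (unit: signal) that equal the deposited counts divided by 1 factor per library. DESeq2 1.34 and R 4.1.2 are listed in the submitters' processing notes. The strand of counting, the counter, the aligner and the build were not given in the sources used here. Genes were annotated by Ensembl ID with GENCODE M21 (GRCm38).

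The counts were fitted with edgeR 4.0.16 (R 4.3.3) by the quasi-likelihood test, with trimmed mean of M values scaling, the filterByExpr filter, all 24 libraries in 1 fit and no covariate. P-values were adjusted over 13121 genes by Benjamini-Hochberg, with calls at 0.05. Intervals of 95% use a t quantile of 2.05. Replicates of a group differed by more than counting noise (chi-square per degree of freedom from 28.8 to 639), so none was counted as a duplicate. Alternatives were RLE size factors, library totals, DESeq2 1.42.0, limma 3.58.1 (voom with quality weights, and trend on the deposited normalized values, in log2 with a pseudocount of 1), other filters, the compared groups alone, a GC and length correction (mgcv 1.9.3), and leaving out libraries. The model was tested on simulated data. Genes given with values in every group were, by rule, in each complex, the one with the highest mean CPM, the one with the smallest p in each comparison, any called lower, and tissue-restricted isoforms; from the other lists, the called genes with the smallest p in RYGB against Sham and RYGB against WM. The genes, lists and tests were chosen with earlier results of these data known.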

Additional observations from a re-analysis of the deposited data

Results flagged for a closer look

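In 66 groups of 8 values (levels of the genes given in full, sums by complex and isoform shares), 8 values, from 7 libraries, stood far from the rest of their group by Dixon's test at the 95% level, which chance gives in about 1 of 20 groups. For Uqcrq, RYGB 11 had 2884 CPM, against 1548 to 2148 CPM in the other RYGB libraries. The same library was high for Atp5g3, with 2874 CPM against 1595 to 2154 CPM. For Atp5g3, Sham 2 was high at 1550 CPM (others 818 to 1110 CPM) and WM 9 was low at 1347 CPM (others 2010 to 2393 CPM). For Cox7a1, WM 20 had 14.6 CPM, against 3.06 to 8.52 CPM. Cox6b2 reached 0.302 CPM in WM 25 (others 0 to 0.136 CPM). Cox8b reached 0.450 CPM in Sham 3 (others 0 to 0.160 CPM) and 1.15 CPM in RYGB 19 (others 0 to 0.414 CPM), at a mean of 3.83 counts per library.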

How the results depend on the processing

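No paired analysis was possible because the replicate numbers in the labels are not shared between groups. No gene of the set was called lower, or called in RYGB against WM, under any setting run. Of 858 fold changes under alternatives, of the genes given in full, 25 changed sign, none of them of a difference called in the reported test. With library totals these were Cox7a1 after RYGB (-0.114), Sdha in WM (-0.127), Uqcrc2 in WM (-0.0138) and Cox5a in RYGB against WM (-0.00119). With the GC and length correction they were Cox7a1 after RYGB (-0.403) and in WM (-0.141) and Cox5a in RYGB against WM (-0.124). The others were all in RYGB against WM: Sdhb with voom (0.0163), Cox5a with limma-trend (-0.00372), and Cox6c (0.112) and Atp5h (0.0461) without Sham 17, RYGB 18 and RYGB 19. Leaving out 1 library, the RYGB against WM value ran from -0.171 to 0.0646 for Cox6c, from -0.0360 to 0.0798 for Cox5a, from -0.211 to 0.0347 for Sdhb and from -0.142 to 0.0257 for Atp5h, and that of the shares from -0.00124 to 0.0157 percentage points for Atp5g2 and from -0.00889 to 0.474 for Atp5g3. With library totals, 18 genes were called higher in RYGB and 18 in WM against Sham (medians 0.397 and 0.538), against 5.75% and 7.99% of all tested genes. The GC and length correction lowered the medians to 0.516 in RYGB and 0.557 in WM. The cause was not tested. Leaving out 1 library gave 27 to 29 genes higher in RYGB (median 0.62 to 0.82) and 31 to 36 in WM (median 0.80 to 0.88), and a median of -0.16 to -0.04 in RYGB against WM. In those settings 11% to 13.3% of all tested genes were called higher in RYGB and 14.7% to 17% in WM. The Atp5g2 share difference from Sham ran from -0.0691 to -0.0431 percentage points in RYGB and from -0.0758 to -0.0497 in WM, and passed only without Sham 6. Of fold changes of genes given in full, 502 kept direction and call when a library was left out, 6 gained and 6 lost the call and 14 changed sign; under other settings 309 kept both, 4 gained, 6 lost and 11 changed sign. Low counts limit Cox6b2 and Cox8b, which were not tested.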
